A study of Bos taurus with 6 samples.

Results

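Oxidoreductases that act outside the core energy pathways were examined in bovine longissimus muscle at an embryonic and an adult stage. They were taken as the transcripts of the deposited table that carry the oxidation-reduction process annotation, lack the inner mitochondrial membrane annotation and have no KEGG entry for oxidative phosphorylation, glycolysis, the citrate cycle, pyruvate, propanoate, fatty acid or branched amino acid degradation, lysine degradation, PPAR signalling or the peroxisome. This rule gave 153 of the 5288 listed transcripts, each from a different gene. Of the 248 transcripts with the oxidation-reduction annotation, 60 were left out for the inner membrane and another 35 for their KEGG entries, and these 95 are called the core energy oxidoreductases below. RNA had been sequenced from the longissimus muscle of 3 Qinchuan embryos (90 d) and 3 adult Qinchuan cattle (24 months), with no treatment or genotype difference named in the labels, to compare muscle between both stages. The table gives 1 FPKM value per stage, and none per animal, and lists only transcripts that they called at least 2-fold different. No value per animal was analysed here, so that no spread between animals can be given and no test between the stages was possible. Both stages are whole muscle, in which fewer cells of a type and less RNA per cell cannot be told apart.

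Oxidoreductases move electrons between substrates, most often with NAD(P)H, a flavin, haem, iron or a reactive thiol as the carrier. Outside the respiratory chain they remove peroxides, keep protein cysteines reduced or form disulphide bonds, close the steps of sterol, retinoid and proline synthesis, supply deoxynucleotides, and break down haem. In skeletal muscle, peroxiredoxins and thioredoxins are known to face the oxidants produced during contraction, and ferritin stores the iron needed for myoglobin and cytochromes.

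Of the 153 oxidoreductases, 138 had a higher FPKM in adult than in embryonic muscle and 15 had a lower one. The share of higher members was 90.2% (95% Clopper-Pearson interval 84.3% to 94.4%, counting error only), and 90.3% of all listed transcripts were higher and 9.68% lower. The interval treats genes as independent, which genes from the same libraries are not, and it holds no spread between animals. The members thus moved in each direction about as often as the table as a whole. Their median log2 fold change, adult over embryo, was 2.61, with quartiles of 1.76 and 3.67, beside a median of 2.71 over all transcripts above 0 in both stages. At least 4-fold higher were 100 members (65.4%), against 69.5% of the table, and at least 4-fold lower were 6 members (3.92%), against 5.5%. At least 16-fold higher were 32 members (20.9%, background 20.1%), and at least 64-fold higher were 8 (5.23%, background 3.06%). The core energy oxidoreductases differed from the members in these values, since all 95 of them were higher at the adult stage (median 4.89). All 15 transcripts with the oxidation-reduction annotation that were lower in adult muscle were therefore members.

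The direction of most members depended on how the stages were scaled against each other. Summed over the table, the FPKM values gave 70749.5 for the embryonic and 674415.7 for the adult stage, and 4 other scalings were therefore applied. Centring on 20 listed housekeeping transcripts shifted every log2 fold change by 4.42 and left 23 members higher (15.03%, against 14.6% of the table). Centring on 72 cytosolic ribosomal protein transcripts shifted the values by 2.31 and left 88 members higher (57.5%, against 60.3%). With equal FPKM totals the shift was 3.25 and 51 members stayed higher, and centred on the median of the table it was 2.71 and 73 stayed higher. The 23 members above the largest shift were higher, and the 15 lower members were lower, under each of these scalings. All 4 shifts were positive, so that no lower member could turn higher. Each shift came from listed transcripts only, of which 90.3% were higher, and genes that were not called could not enter it. Of 30 housekeeping symbols 20 were listed, among them SDHA, PGK1, CYC1 and GPI of energy metabolism. The scalings thus show how far directions depend on this choice, and not which shift is right. The study also reported that the libraries differed by stage. Embryonic samples had a smaller share of exonic reads, a larger share of intronic reads and a lower mapping ratio than adult ones. The part of this difference in the FPKM values was not tested. The order of the members within a stage, and the ratio of 2 enzymes within a stage, do not depend on the scaling.

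**Figure D1:**
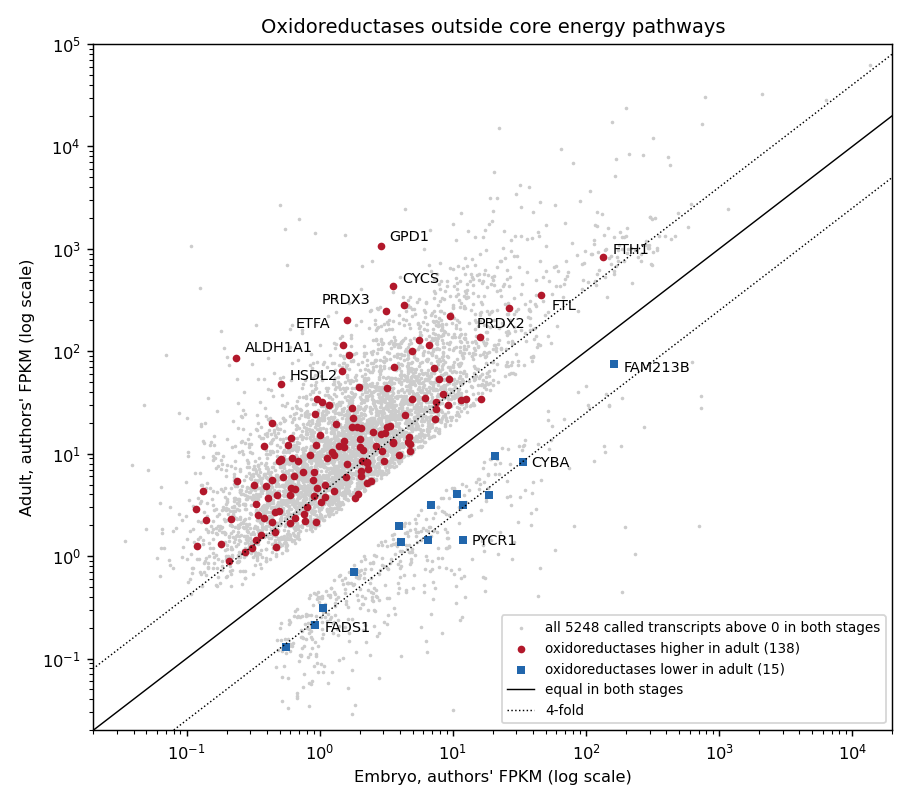
Authors' FPKM of each transcript in embryonic (x axis) and adult (y axis) longissimus muscle, both on log scales, with 1 value per stage. Grey points are the 5248 called transcripts above 0 in both stages, red circles the 138 oxidoreductases higher and blue squares the 15 lower in adult muscle as deposited, of which 23 and 15 keep that direction under all scalings tried. The empty band around the line of equality reflects the authors' 2-fold minimum, and the dotted lines mark 4-fold.

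Levels of the members ran from 0.119 to 163 FPKM in the embryo and from 0.129 to 1066 FPKM in the adult. The median FPKM was 1.59 in embryonic and 9.08 in adult muscle. In the embryo 58 members were below 1 FPKM, in the adult 5, and none was listed at 0. In the embryo the highest member was FAM213B, which encodes a thioredoxin-like prostaglandin F synthase, at 163 FPKM or 19.5% of the summed FPKM of all members. Ferritin heavy chain FTH1 followed at 134 FPKM (16.1%) and ferritin light chain FTL at 45.8 FPKM. In the adult the highest member was GPD1, the cytosolic glycerol-3-phosphate dehydrogenase, at 1066 FPKM or 16.5% of the sum, followed by FTH1 at 823 (12.7%) and cytochrome c (CYCS) at 429.8 (6.63%). The other members among the 10 highest were CYBA, PRDX2, VAT1, ENSBTAG00000048058, QDPR, AHCY and VKORC1 in the embryo, and FTL, GMPR, PRDX2, PRDX3, CYB5R1, ETFA and AHCY in the adult. FTH1, FTL, PRDX2 and AHCY, which hydrolyses S-adenosylhomocysteine, were the 4 genes among the 10 highest in both stages. The 10 highest made up 58.4% of the summed FPKM of the members in the embryo and 62.0% in the adult. Across the 153 members, levels in the embryo and in the adult correlated with a Spearman rho of 0.55, a description across genes that share libraries and are not independent. The furthest climb in this order was that of ALDH1A1, from rank 146 to rank 16, and the furthest descent that of PYCR1, from rank 12 to rank 140.

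ALDH1A1, which oxidises retinal to retinoic acid and also clears lipid aldehydes, stood at 0.235 FPKM in the embryo and 86.8 FPKM in the adult. It lies on chromosome 8, positions 49354206 to 49408321 of bosTau7, the build of all positions given here. This was a 369-fold difference, a log2 fold change of 8.53, and 4.11 remained after centring on the housekeeping transcripts. With a pseudocount of 1 FPKM the log2 fold change was 6.15, because the embryonic value was low. GPD1 (chromosome 5, 29958500 to 29964085), which links glycolysis to glycerolipid synthesis and to the glycerol phosphate shuttle, showed a difference of the same size, from 2.87 to 1066 FPKM (371-fold). These were the highest fold changes of all members, and the next was that of ETFA at 126-fold.

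**Figure D2:**
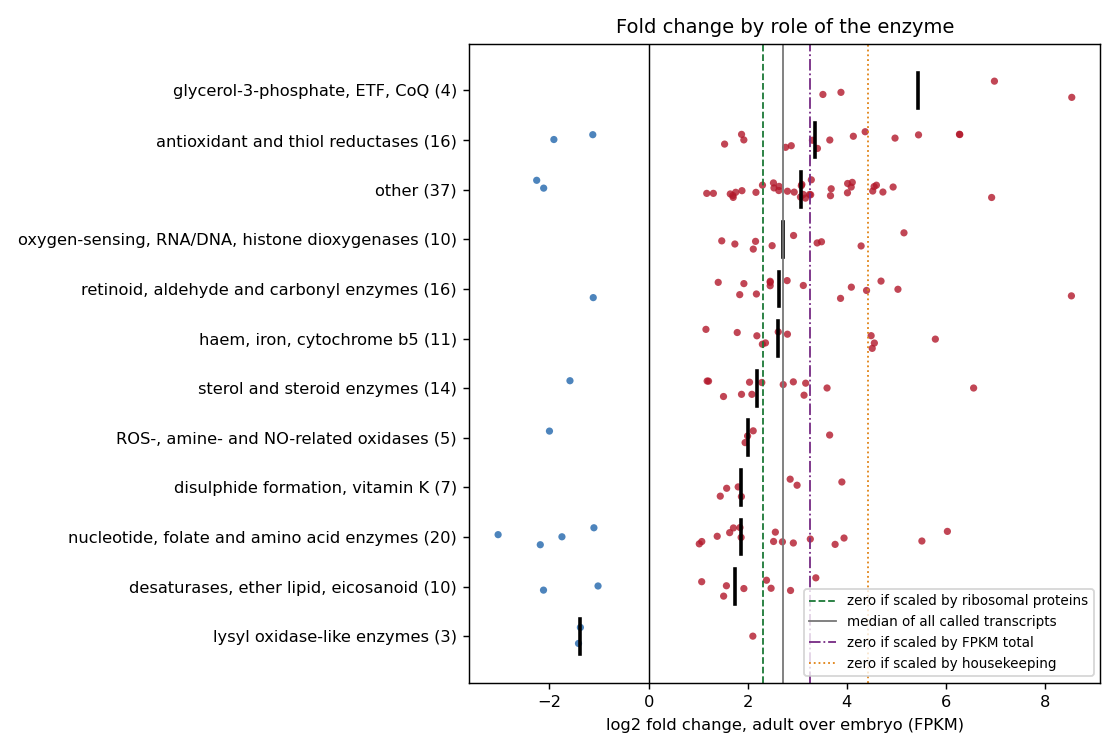
Log2 fold change of each of the 153 oxidoreductases, adult over embryo, by role of the enzyme, with the number of members in brackets, red for higher and blue for lower as deposited, and black bars for group medians. The 4 vertical lines mark where zero would lie under the other scalings, namely 2.31 for ribosomal proteins, 2.71 for the median of all transcripts, 3.25 for equal FPKM totals and 4.42 for housekeeping transcripts. The median of the group of 4 glycerol-3-phosphate and flavoprotein enzymes lies right of all 4 lines and that of the 3 lysyl oxidase-like enzymes left of them and of 0, while the other medians change sign under at least 1 scaling.

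Enzymes that reduce peroxides, oxidised thiols or oxidised methionine, with a few proteins listed beside them, formed a group of 16. Of these members 14 were higher and 2 lower at the adult stage, and their median of 3.35 on the log2 scale became negative only under the housekeeping scaling. PRDX3, the mitochondrial peroxiredoxin, went from 3.16 to 245 FPKM (77.5-fold). MSRA, which repairs oxidised methionine, went from 1.50 to 116 FPKM, and AIFM1, a mitochondrial flavoprotein, from 1.47 to 63.8 FPKM. PRDX6, whose enzyme has a single reactive cysteine and also acts on phospholipids, stood at 0.383 and 12 FPKM. The thioredoxins of both compartments were alike in level and change. Cytosolic TXN went from 6.57 to 115 FPKM and mitochondrial TXN2 from 4.90 to 101. Their reductases were not alike, with TXNRD1 of the cytosol at 1.78 and 22.4 FPKM and TXNRD2 of the mitochondrion at 1.57 and 5.96 FPKM. The ratio of TXNRD2 to TXNRD1 accordingly went from 0.885 in the embryo to 0.266 in the adult.

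Among the 4 peroxiredoxins that were members the order of levels was different in each stage. In the embryo PRDX2, a cytosolic enzyme, was highest at 26.5 FPKM, followed by PRDX4 of the endoplasmic reticulum at 11.5, PRDX3 at 3.16 and PRDX6 at 0.383. In the adult PRDX2 at 262 and PRDX3 at 245 FPKM were close together, PRDX4 was at 33.4 and PRDX6 at 12. PRDX3 was thus 0.119 of PRDX2 in the embryo and 0.936 of it in the adult, and PRDX3 relative to PRDX4 went from 0.274 to 7.34. These ratios do not change with the scaling between stages. PRDX1 and PRDX5, which were listed but were not members, were at 12.4 and 11.5 FPKM in the embryo and at 264 and 123 in the adult. With them counted, PRDX1 and not PRDX2 was the highest listed peroxiredoxin of the adult. SRXN1, which reactivates overoxidised peroxiredoxins, and GSR, which reduces glutathione, went from 0.217 to 2.29 and from 0.345 to 2.54 FPKM. The remaining higher members of the group were APEX1, a DNA repair enzyme with a redox function, and NXN, a thioredoxin-like protein, at log2 fold changes of 2.76 and 1.87.

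The 2 lower members of this group were FAM213B and GPX7. FAM213B, the prostaglandin F synthase, is annotated with fatty acid biosynthesis and with neither antioxidant activity nor cell redox homeostasis. Its place in this group rests on the list of enzyme families. FAM213B (chromosome 16) went from 163 to 74.4 FPKM, a 2.18-fold lower value, and remained the 17th highest member in the adult. GPX7, a peroxidase of the endoplasmic reticulum (chromosome 3), went from 11.9 to 3.15 FPKM. In the same table, SOD1 (log2 fold change 4.21), SOD2 (5.88), CAT (4.82) and PRDX1 (4.41), the superoxide dismutases, catalase and another peroxiredoxin, were higher in the adult as deposited. SOD1 and PRDX1 were negative under the housekeeping scaling. None of these genes was a member under the rule. A separate transcript, ENSBTAG00000027412, which the table describes as a copper-zinc superoxide dismutase, was a member, at 0.435 FPKM in the embryo and 5.54 in the adult. Fragments of such near copies may have been divided between loci, and its value is uncertain for that reason.

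**Figure D3:**
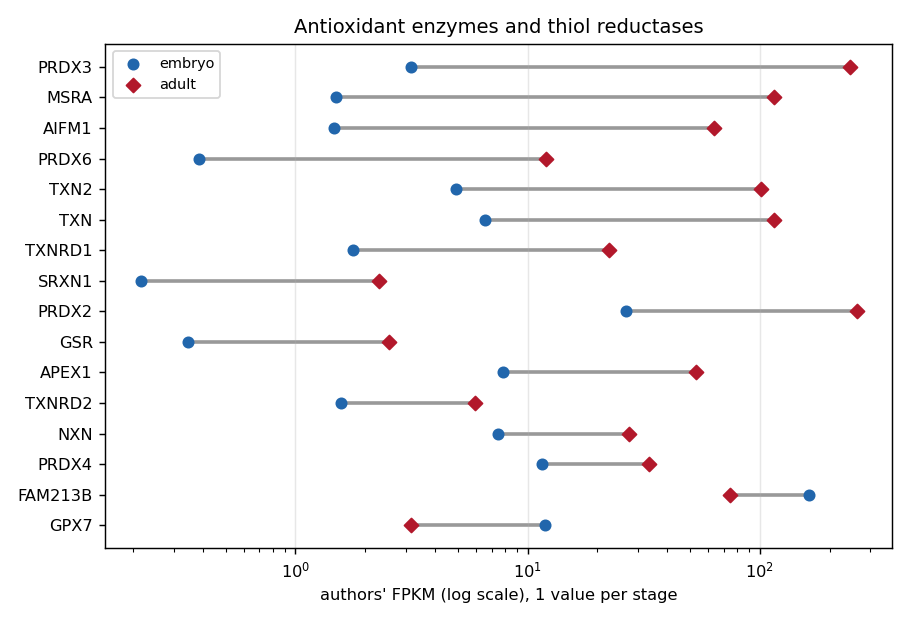
Authors' FPKM (log axis) of the 16 members listed as antioxidant enzymes and thiol reductases, in embryonic (blue circles) and adult muscle (red diamonds). There is 1 value per stage, and grey lines join both values of a gene. PRDX3 and MSRA differ most, while FAM213B and GPX7 are lower in the adult as deposited and under every scaling tried.

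Enzymes of disulphide formation and vitamin K reduction were all higher in adult muscle as deposited, 7 of 7, but with a low median of 1.87 that was negative under all 4 other scalings. PCYOX1, which degrades prenylated cysteines, had the highest change, from 1.01 to 15.1 FPKM. CHCHD4 and GFER, the partners of the disulphide relay of the mitochondrial intermembrane space, were at 1.14 and 7.29 FPKM in the embryo and at 9.08 and 21.7 in the adult. TMX1, TXNDC12 and ERO1L, which act in the endoplasmic reticulum, had log2 fold changes of 2.86, 1.87 and 1.81. VKORC1, the vitamin K epoxide reductase, was among the 10 highest members of the embryo at 12.6 FPKM and was at 34.2 in the adult.

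No collagen hydroxylase was among the members, because the transcripts P4HA1, P4HA3, LEPRE1 and LEPREL1 of the table carry no oxidation-reduction process annotation. The collagen-modifying members were 3 lysyl oxidase-like genes, whose enzymes crosslink collagen and elastin. LOXL1 (chromosome 21) went from 10.7 to 4.03 FPKM and LOXL3 (chromosome 11) from 1.80 to 0.695, while LOXL4 went from 0.332 to 1.43. The median of these 3 was -1.38, negative as deposited and under each scaling, with LOXL4 lower as well once any of the 4 was applied. The ratio of LOXL1 to LOXL4 went from 32.4 to 2.83. Of 9 fibrillar collagen genes looked for, 5 were listed, all lower in the adult with a median of -5.26. Of 7 fibroblast markers 3 were listed, COL1A1, COL1A2 and PDGFRA, whose FPKM summed to 772 in embryonic and 106 in adult muscle. PDGFRA went the other way as deposited (log2 fold change 1.28) but was lower as well under all 4 other scalings. The part of these cells in the lysyl oxidase values was not tested.

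Dioxygenases that use oxygen and oxoglutarate to act on proteins, RNA or DNA were all higher as deposited, 10 of 10. Their median of 2.71 was close to that of the table and was negative under the scalings by FPKM total and by housekeeping transcripts. ENSBTAG00000010500, which the table describes as EGLN1, the prolyl hydroxylase that marks hypoxia-inducible factors for degradation, went from 0.957 to 34.0 FPKM. Another transcript named EGLN1, without the annotation that defines the members, had a log2 fold change of 3.46 against 5.15 here, and reads may have been shared between both loci. ALKBH7, a mitochondrial enzyme, went from 3.63 to 70.7 FPKM, ALKBH8, which modifies tRNA, from 0.527 to 5.91, and ALKBH3, which repairs alkylated nucleic acids, from 1.73 to 18.3. MINA, a hydroxylase of a ribosomal protein, and ALKBH5, which removes methyl groups from adenosine in mRNA, had log2 fold changes of 2.92 and 2.49. OGFOD1, ALKBH4, ALKBH2 and SMCX, the histone demethylase also known as KDM5C, lay between 1.48 and 2.16. Of 5 hypoxia response factors looked for outside the members 3 were listed, EPAS1 (3.28) and VHL (1.99) higher as deposited and HIF3A (-5.78) lower. VHL was negative under all 4 other scalings and EPAS1 under the housekeeping scaling only.

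Sterol and steroid enzymes were higher in 13 of 14 cases as deposited, with a median of 2.18 that was negative under all 4 other scalings. HSDL2, a sterol carrier-like dehydrogenase, stood apart from the group at 0.511 FPKM in the embryo and 48.1 in the adult (94.1-fold), whereas its relative HSDL1 went from 0.770 to 2.19. The ferredoxins FDX1 and FDX1L, which hand electrons to cytochromes P450 and to iron-sulphur cluster assembly, were at 0.395 and 1.52 FPKM in the embryo and at 4.79 and 13.4 in the adult. HSD17B7, SRD5A1, a reductase of steroid hormones, and HSD17B11 had log2 fold changes of 3.17, 2.92 and 2.72. DHCR7, the reductase of the sterol ring in cholesterol synthesis, went from 0.940 to 2.17 FPKM. The cholesterol synthesis members SC4MOL, LBR and TM7SF2 had log2 fold changes of 2.04, 2.08 and 1.18, and POR, the electron donor of microsomal cytochromes P450, had 1.87. Of 17 genes of sterol regulation and synthesis looked for, 8 were listed and 7 of these were higher as deposited, 1 of them the member HSD17B7.

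The retinoid, aldehyde and carbonyl enzymes held 15 higher members and 1 lower member. Their median of 2.62 was negative under the housekeeping scaling, under equal FPKM totals and when centred on the table. Beside ALDH1A1, the highest changes were those of CBR4, a quinone and carbonyl reductase of mitochondria (0.133 to 4.36 FPKM), CRYZ, a quinone reductase (1.17 to 30.1 FPKM), RTN4IP1 of mitochondria (0.581 to 12.2 FPKM), PTGR2, which reduces prostaglandins (0.494 to 8.40 FPKM), and DHRS12 (0.619 to 9.06 FPKM). Enzymes that turn retinal or retinol the other way differed less. DHRS3, which reduces retinal to retinol, was at 8.41 FPKM in the embryo, 35.8 times the level of ALDH1A1 there, and at 37.9 in the adult, below ALDH1A1. RDH14 was at 2.04 and 17.7 FPKM and RETSAT, which saturates retinol, at 0.458 and 1.74. VAT1 (chromosome 19), a vesicle-associated quinone reductase-like protein, was the lower member, from 20.8 to 9.59 FPKM. Outside the members, 5 of 12 retinoid carriers and receptors were listed, with RARA (-2.10) and CRABP1 (-4.64) lower in the adult. RARB (1.50), RXRB (1.73) and RXRG (1.49) were higher as deposited and negative under all 4 other scalings.

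Lipid desaturation, ether lipid and eicosanoid enzymes had 8 higher and 2 lower members. The median of 1.75 was the lowest among the groups of more than 3 and was negative under all 4 other scalings. FADS1 (chromosome 29), the desaturase of polyunsaturated fatty acids, went from 0.930 to 0.214 FPKM. FASN (chromosome 19), the fatty acid synthase, went from 3.97 to 1.96 FPKM, just past the authors' 2-fold minimum. SCD, which desaturates stearic acid, went the other way as deposited, from 3.38 to 18.7 FPKM. Of the other scalings, only that by ribosomal proteins left SCD higher. SCD was 3.64 times FADS1 in the embryo and 87.6 times in the adult, whatever the scaling. CYP1B1, AGMO, which cleaves ether lipids, HSD17B12, which elongates long-chain fatty acids, and CYP2U1, a fatty acid hydroxylase, had log2 fold changes of 3.37, 2.86, 2.38 and 1.92. Of 7 adipocyte markers 2 were listed, both higher in the adult. ADIPOQ went from 0.252 to 6.75 FPKM and LPL, which was the larger value in each stage, from 1.27 to 122. The part of adipocytes in the values of these enzymes, and in those of GPD1 and ALDH1A1, was not tested.

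The enzymes of nucleotide, folate and amino acid metabolism were the group of 20 with the most lower members, 4 beside 16 higher ones, at a median of 1.85 that was negative under all 4 other scalings. PYCR1 (chromosome 19, 51567327 to 51572084), the mitochondrial reductase of the last step of proline synthesis, had the lowest log2 fold change of all members, -3.04, from 11.8 to 1.44 FPKM. ALDH18A1, which makes the precursor of that step, went the other way as deposited, from 2.28 to 8.15 FPKM. It was lower as well under all 4 other scalings. PHGDH (chromosome 3), the first enzyme of serine synthesis, went from 6.48 to 1.42 FPKM. CDO1 (chromosome 10), which oxidises cysteine, went from 6.84 to 3.18 FPKM.

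Ribonucleotide reductase, which makes deoxynucleotides for DNA synthesis, split by subunit. RRM2 (chromosome 11), the small subunit that is made in dividing cells, went from 1.06 to 0.315 FPKM, while RRM1, the large subunit, went from 1.89 to 18.2. RRM1 was lower as well under the housekeeping scaling, but under no other. RRM2 was 0.558 of RRM1 in the embryo and 0.0173 in the adult. GMPR, which converts guanosine monophosphate to inosine monophosphate, had the highest change of this group, from 4.33 to 282 FPKM, beside 2.93 and 10.7 for its relative GMPR2. The ratio of GMPR to GMPR2 went from 1.48 to 26.4. D2HGDH, a mitochondrial enzyme that removes the D form of hydroxyglutarate, went from 1.28 to 9.70 FPKM. The folate and methionine enzymes MTHFD1 (3.22 to 43.7 FPKM) and MTRR (0.322 to 4.94 FPKM) came next. The biopterin enzymes SPR and QDPR, the purine enzyme IMPDH2, the pyrimidine enzyme DHODH, and SUOX, DUS2L, GLYR1 and UGDH were all higher as deposited, with log2 fold changes between 1.02 and 2.70.

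**Figure D4:**
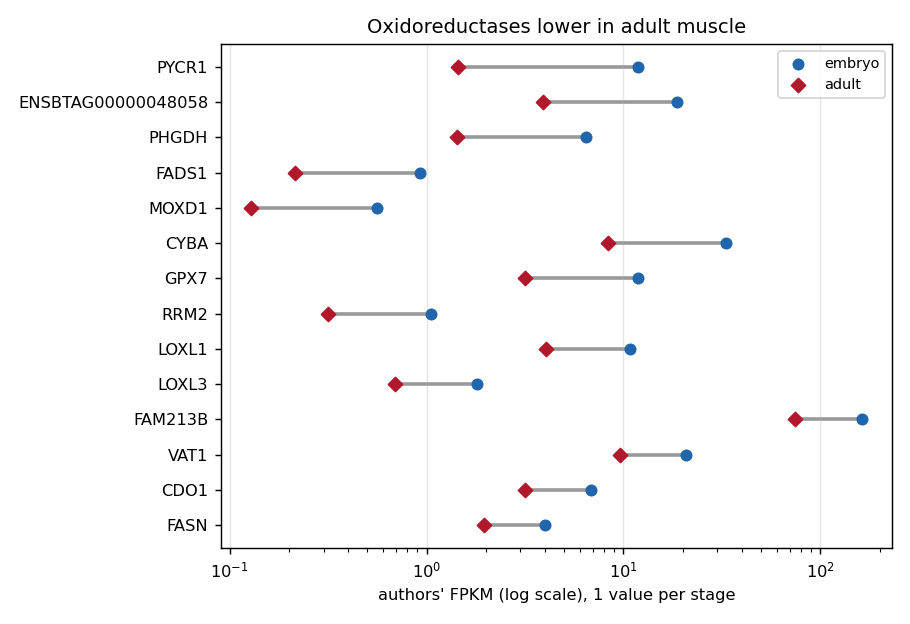
Authors' FPKM (log axis) of 14 of the 15 oxidoreductases that were lower in adult muscle (red diamonds) than in embryonic muscle (blue circles), 1 value per stage, ordered by fold change with PYCR1 at the top. They stay lower under the 4 other scalings, and their adult levels run from 0.129 FPKM for MOXD1 to 74.4 FPKM for FAM213B.

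All 11 enzymes of haem, iron and cytochrome b5 were higher as deposited. The median of 2.61 was negative under the housekeeping scaling, under equal FPKM totals and when centred on the table. BLVRB, which reduces biliverdin, had the highest change, from 1.65 to 91.2 FPKM. Both haem oxygenases of the table were members as well. The inducible HMOX1 went from 1.99 to 44.7 FPKM and the constitutive HMOX2 from 4.93 to 34.4, so that the ratio of HMOX1 to HMOX2 went from 0.403 to 1.30. CYB5R1, a cytochrome b5 reductase, went from 9.49 to 223 FPKM, and CPOX of haem synthesis from 0.239 to 5.45. FTH1 went from 134 to 823 FPKM and FTL from 45.8 to 350.4, both close to the median change of the table. Their ratio was 2.93 in embryonic and 2.35 in adult muscle. FTH1 and CYCS belong to families with processed pseudogenes, and fragments of such copies may have been counted elsewhere. PPOX, CYB5A, CYB5R4, RSAD1 and NDOR1 lay between 1.16 and 2.36. None of 7 erythroid markers was listed, which leaves their levels unknown.

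Of the 5 oxidases that produce reactive oxygen species or act on amines, 4 were higher and 1 was lower, with a median of 2.0 that was negative under all 4 other scalings. CYBA (chromosome 18), the small membrane subunit of the NADPH oxidases, was the fourth highest member of the embryo at 33.4 FPKM and was at 8.34 in the adult. CYBB, the catalytic subunit that pairs with it in phagocytes, was low in both stages, at 0.275 and 1.10 FPKM. CYBA was 121 times CYBB in the embryo and 7.59 times in the adult. None of 7 macrophage markers was listed. MAOA, which oxidises monoamines, went from 0.682 to 8.56 FPKM, and the diamine oxidase ABP1 and the flavin monooxygenase FMO5 ended at 0.901 and 1.2 FPKM in the adult.

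The rule left in 4 enzymes of glycerol-3-phosphate, electron transfer flavoprotein, sulphide and coenzyme Q metabolism. They had the highest median of any group, 5.43, which stayed positive under all 4 other scalings. Beside GPD1, ETFA, the electron transfer flavoprotein subunit that takes electrons from acyl-CoA dehydrogenases, went from 1.59 to 200.4 FPKM. ETHE1, which oxidises persulphide in mitochondria, went from 1.33 to 19.6 FPKM, and COQ6, a coenzyme Q hydroxylase, from 0.849 to 9.71. Several members thus work in or next to energy metabolism although they passed the rule, among them also CYCS of the respiratory chain, from 3.55 to 429.8 FPKM, and DHTKD1, ACAD9 and ACAD11. Leaving out 9 such members left 144, of which 89.6% were higher, with a median of 2.52, as deposited.

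The last 37 members belonged to no role group, with 35 higher and 2 lower and a median of 3.08 that was negative under the housekeeping scaling and under equal FPKM totals. After CYCS, the highest changes were those of DHDH, a dihydrodiol dehydrogenase (1.04 to 31.7 FPKM), CREG1, a secreted glycoprotein (0.921 to 24.4 FPKM), MTO1, which modifies mitochondrial tRNA (0.119 to 2.87 FPKM), DHTKD1 (0.604 to 14.1 FPKM) and ZDHHC4 (5.60 to 129 FPKM). Some of these carry the annotation although the gene is better known for another function, such as ZDHHC4, a protein palmitoyltransferase, and F8, coagulation factor VIII (0.640 to 6.08 FPKM), the latter chosen after its values were seen. The lower members were MOXD1, a copper monooxygenase-like protein (chromosome 9), from 0.560 to 0.129 FPKM, and ENSBTAG00000048058. The table describes the latter as uncharacterized and annotates it with cysteine dioxygenase activity, the activity of CDO1. It lies on chromosome 10 from 4608188 to 4608558, 1.27 kb from CDO1, and went from 18.7 to 3.91 FPKM.

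Members lay on 30 chromosomes, and 5 pairs were within 50 kb of each other, each pair with the same direction as deposited. ENSBTAG00000047957, annotated with desaturase-type activity, lay 2.81 kb from SCD on chromosome 26 and was higher in the adult like it (9.14 and 29.8 FPKM). HSD17B12 with ALKBH3 and DHDH with FTL were further pairs. Neighbouring loci can share fragments, and the values of such pairs may not be independent.

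By annotated place in the cell, the 57 mitochondrial members had a median of 3.09 on the log2 scale and 54 of them were higher, against 2.45 for the 96 others and 3.59 for all 735 mitochondrial transcripts of the table. Among the 96 members without this annotation were 12 of the 15 lower ones, the exceptions being the 3 mitochondrial ones PYCR1, CYBA and FASN. The 19 members of the endoplasmic reticulum had a median of 1.95, against 2.68 for all 217 transcripts of that compartment. Of 8 copper-binding members 5 were higher and 3 lower, the latter being LOXL1, LOXL3 and MOXD1. The medians of the endoplasmic reticulum members and of the members without a mitochondrial annotation were below the shift of 2.71 of the whole table, and those of the mitochondrial members above it. These are descriptions, and no test of a difference between compartments was run.

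Several pairs of related enzymes had another order in the adult than in the embryo. The pairs in the plot of ratios were chosen after their values were seen and have no test. In 5 of the 16 pairs plotted, the first enzyme was above the second in 1 stage and below it in the other. LOXL3 and LOXL4, HMOX1 and HMOX2, AHCYL2 and AHCYL1, HSDL2 and HSDL1, and PRDX3 and PRDX4 were these pairs. FTH1 and FTL, and TXN2 and TXN, kept nearly the same ratio.

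**Figure D5:**
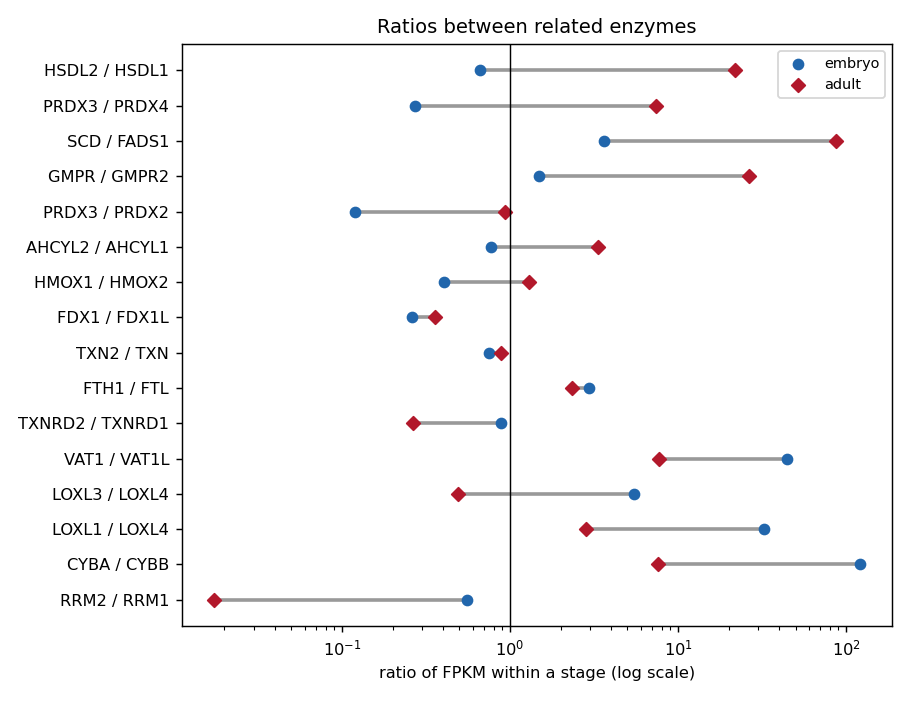
Ratio of the FPKM of 2 related oxidoreductases within embryonic muscle (blue circles) and within adult muscle (red diamonds), on a log axis with a vertical line at 1, from 1 value per stage. The ratios do not depend on the scaling between stages, and that of RRM2 to RRM1 goes from 0.558 to 0.0173 and that of PRDX3 to PRDX4 from 0.274 to 7.34.

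Genes outside the members that regulate or serve these enzymes were mostly higher as deposited, as were 90.3% of all listed transcripts. Their direction therefore does not set them apart from the table. Of 13 genes of the NRF2 pathway and of glutathione synthesis looked for, 4 were listed and all were higher, namely GCLM, MAFF, SQSTM1 and CUL3, with a median of 3.83 that was negative under the housekeeping scaling. Of 7 genes of selenoprotein synthesis 5 were listed, all higher, with a median of 3.26 that was also negative under that scaling. NADPH-supplying enzymes gave no member. Of 12 skeletal muscle markers 8 were listed, all higher in the adult as deposited. Their FPKM summed to 3540 in embryonic and 102534 in adult muscle. With most of the table higher, this direction does not check the tissue label. MYOG (log2 fold change 1.35) was negative under all 4 other scalings, and TNNC2 and DES under the housekeeping scaling only. The 8 markers gave 9 transcripts, with a TNNT3 transcript listed at 0 in the embryo. The median log2 fold change was 5.37 over the 8 transcripts above 0 in both stages. Of the endothelial markers 4 of 7 were listed, all higher, with a median of 2.18 that was negative under all 4 other scalings. The part of these cells in the members' values was not tested.

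The deposited gene numbers per annotation term cover more genes than the members, which are 153 of the 248 listed transcripts with the oxidation-reduction annotation, 6 of 12 with antioxidant activity, 5 of 8 with peroxidase activity, 9 of 33 with cell redox homeostasis and 2 of 10 with haem biosynthesis. The authors counted 260 called genes of the 766 background genes with the oxidation-reduction process annotation (33.9%), against 4861 of 21673 background genes in all (22.4%). For antioxidant activity it was 14 of 28 (50%), for peroxidase activity 10 of 24 (41.7%), for cell redox homeostasis 34 of 79 (43.04%) and for haem biosynthesis 11 of 18 (61.1%). These tables hold only terms past the authors' threshold, so that low shares could not appear. Of the 260 called genes counted for the oxidation-reduction process, 248 transcripts with the term were found in the expression table.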

How the data were processed

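RNA of 6 longissimus muscle samples was sequenced, after depletion of ribosomal RNA according to the study's methods, while the labels name polyA RNA. Adapters were removed with Trim Galore, reads aligned to bosTau7 with TopHat2 2.0.14 and transcripts quantified with Cufflinks by the authors, who deposited FPKM values (fragments scaled to exon length and library size) as 1 value per stage for called transcripts only. The table codes both stages by letters, which were read as adult and embryo from the direction of the fold change in the study's methods. The number of fragments behind single values is unknown, so that an interval covers counting error of a share only, over genes that are not independent. The deposited fold change, p-value and q-value columns hold the authors' comparison and were not used. Other deposited tables give numbers of genes per GO term. Log2 fold changes, adult over embryo, were computed from the FPKM values without a pseudocount or filter, with Python 3.11.15 and pandas 2.3.3, and calls on 4-fold or more refer to these. The calculation was tested on simulated data. Symbols were matched to RefSeq gene names (136 of 153 current, 7 synonyms). Role groups came from lists of enzyme families, and members outside them form the last group. Members and lists were chosen with earlier results of these data known. Named were ALDH1A1, every lower member, the 10 highest fold changes and levels, and up to 6 members of each group by fold change. A few genes that this rule takes are not reported here by name, though they remain in the counts and medians. Alternatives tried were other scalings, pseudocounts of 1 and 0.1, FPKM minimums of 2, a 4-fold minimum, distinct symbols and wider or narrower member rules.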

Additional observations from a re-analysis of the deposited data

How the results depend on the processing

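Other scalings, all computed from called transcripts only, changed the results most. The share of members higher in adult muscle, 90.2% as deposited, was 15.03% when centred on housekeeping transcripts, 57.5% on ribosomal proteins, 33.3% with equal FPKM totals and 47.7% on the median of all transcripts, the last chosen after seeing the data. The median log2 fold change, 2.61 as deposited, was -1.80, 0.31, -0.64 and -0.090 under these 4 scalings in the same order. Members at least 4-fold higher (100) numbered 5, 25, 11 and 16, and members at least 4-fold lower (6) numbered 67, 15, 22 and 15. Groups with a positive median (11 of 12) numbered 1, 6, 2 and 4.

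Under the housekeeping scaling the group medians turned to -1.06 for antioxidant enzymes, -2.54 for disulphide formation, -2.67 for lipid enzymes, -1.80 for haem and iron, -2.56 for nucleotide and amino acid enzymes, -2.42 for oxidases, -1.71 for dioxygenases, -1.79 for retinoid and carbonyl enzymes, -2.23 for sterol enzymes and -1.34 for the ungrouped members. With equal FPKM totals they turned to -1.38 for disulphide formation, -1.51 for lipid enzymes, -0.64 for haem and iron, -1.40 for nucleotide and amino acid enzymes, -1.26 for oxidases, -0.55 for dioxygenases, -0.63 for retinoid and carbonyl enzymes, -1.07 for sterol enzymes and -0.17 for the ungrouped members. Centred on all transcripts they turned to -0.83 for disulphide formation, -0.96 for lipid enzymes, -0.090 for haem and iron, -0.85 for nucleotide and amino acid enzymes, -0.71 for oxidases, -0.082 for retinoid and carbonyl enzymes and -0.52 for sterol enzymes. Centred on ribosomal proteins they turned to -0.44 for disulphide formation, -0.56 for lipid enzymes, -0.45 for nucleotide and amino acid enzymes, -0.31 for oxidases and -0.12 for sterol enzymes.

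Without a change of scaling the direction of the overall median held. It was 1.79 with a pseudocount of 1, 2.11 for the 61 members above 2 FPKM in both stages, 3.17 for the 106 members past 4-fold and 3.41 for all 248 oxidation-reduction transcripts. Above 2 FPKM in both stages, 32 members were at least 4-fold higher and 2 at least 4-fold lower. No paired analysis was possible because the table gives 1 value per stage, and for the same reason no replicate could be left out. The planned descriptions of promoter motifs and protein lengths were not run. The study gives the reads of each library, but no fragment count per transcript was available, so the precision of low FPKM values is unknown.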
